A study of Mus musculus with 3 samples.

Results

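The genes described here are 51 genes of G2 phase and mitosis, a fixed list of the kind used to score dividing cells in single-cell data, followed across the cell classes of the mouse lung at E14.5. They were found by Ensembl ID, and all 51 are among the 30406 genes present in the gene table of every library. They were sorted by known function into 8 roles, from mitotic entry (10 genes) to the nuclear envelope (2 genes).

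The study compared lung cells sorted for Epcam alone, a protein on the surface of epithelium, with cells sorted for Epcam and for Icam1, an adhesion molecule that leukocytes bind. Lungs of C57/B6 embryos from a pair of females were pooled, dissociated with Dispase, Collagenase and DNase, treated for red cell lysis and stained with antibodies to Epcam and Icam1. 10x Genomics 3' single-cell libraries were made from cells sorted as Epcam+ Icam+ (2 libraries, replicates 1 and 2) and from cells sorted as Epcam+ (1 library), all from embryos of the same age, and the labels name no transgene or treatment. Whether the replicates were separate pools of lungs is not given, so the spread that a p-value here covers could be purely technical. Between classes, where library is a term of the fit, that is the spread of class differences from library to library. Between the sorts a p-value covers spread of the Epcam+ Icam+ libraries only, because the Epcam+ sort has 1 library.

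The libraries held 74170599 and 67843828 unique molecules (UMIs) in the Epcam+ Icam+ sort and 84460347 in the Epcam+ sort. After filtering, 3271, 3052 and 2902 cells remained, and the 2859, 2598 and 2649 cells with at least 5000 UMIs were thinned to 5000 UMIs each, so that every cell was compared at 1 depth. Classes were cut with marker genes that are not among the 51. Tip cells (Sox9, Etv5, Etv4, Id2 and Bmp4) numbered 651, 597 and 1798, airway cells (Sox2, Scgb3a2, Cyp2f2 and Scgb1a1) 67, 85 and 100, epithelial cells with Hopx or Clic5, genes known from alveolar type 1 cells, 342, 296 and 1, and macrophages 518, 499 and 60. The single Hopx/Clic5-positive cell of the Epcam+ library was left out. Many cells sat at the gate: 178 and 151 of the Hopx/Clic5-positive cells and 273, 233 and 331 of the tip cells had exactly the 2 marker UMIs required, and 888, 782 and 506 epithelial cells entered no class. Macrophages held macrophage markers at 13350, 13070 and 12960 CPM (UMIs scaled to a total of 1000000) against 15.1, 7.37 and 29.4 CPM in tip cells. They came out of an Epcam sort and held epithelial markers at 185, 184 and 433 CPM, against 3625, 3569 and 3534 CPM in tip cells. The 60 macrophages of the Epcam+ library also held mast cell and basophil markers at 1247 CPM, against 167 and 202 CPM in the macrophages of the Epcam+ Icam+ libraries. Libraries shared 3, 0 and 1 cell barcodes. The sorts also differ in the Cell Ranger version in the file headers and in the gene table, and none of these can be told apart from the Icam1 pick.

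As background, transcripts of mitotic genes build up through G2, are highest around mitosis and drop as cells divide and enter G1. Cdk1 with cyclin B drives cells into mitosis, the spindle checkpoint holds back the anaphase-promoting complex until chromosomes are attached, and that complex then marks cyclin B for destruction. In the developing lung, the distal tips hold dividing progenitors, and their descendants leave the tip to form airway or alveolar cells. Many of these genes are held silent in resting cells by the DREAM complex, which binds CHR elements, with the core letters TTTGAA, often next to CCAAT boxes bound by the factor NF-Y.

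Promoters of 6 genes whose levels are followed by library and class are shown, because most of the list shares these motifs, from 130 bases before to 30 bases after the start given by RefSeq (build GRCm38.p6), 5′ to 3′ along the gene. Capitals mark TTTGAA and CCAAT on either strand (TTCAAA and ATTGG on the other).
Cdk1: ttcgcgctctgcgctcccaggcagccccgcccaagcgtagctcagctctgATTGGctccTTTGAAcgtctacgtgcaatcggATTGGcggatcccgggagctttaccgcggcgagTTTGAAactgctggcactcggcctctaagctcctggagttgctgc
Ccnb2: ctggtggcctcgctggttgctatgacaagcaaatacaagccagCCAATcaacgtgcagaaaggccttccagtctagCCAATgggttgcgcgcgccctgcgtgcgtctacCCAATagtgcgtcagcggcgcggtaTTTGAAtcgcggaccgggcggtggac
Cdc20: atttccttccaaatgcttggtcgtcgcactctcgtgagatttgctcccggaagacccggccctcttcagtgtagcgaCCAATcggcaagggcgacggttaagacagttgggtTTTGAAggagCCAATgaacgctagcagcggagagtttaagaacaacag
Ube2c: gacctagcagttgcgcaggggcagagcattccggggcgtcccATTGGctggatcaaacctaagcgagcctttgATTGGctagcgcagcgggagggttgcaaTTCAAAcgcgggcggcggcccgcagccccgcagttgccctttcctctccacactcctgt
Top2a: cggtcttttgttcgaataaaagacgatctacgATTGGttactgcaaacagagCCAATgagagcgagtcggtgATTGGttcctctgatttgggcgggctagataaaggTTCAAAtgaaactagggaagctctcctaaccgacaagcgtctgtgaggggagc
Mki67: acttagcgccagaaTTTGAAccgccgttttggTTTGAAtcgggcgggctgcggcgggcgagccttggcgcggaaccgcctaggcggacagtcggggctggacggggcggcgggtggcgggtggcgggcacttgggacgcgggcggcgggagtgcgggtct
These windows lie at chr10:69352883-69353042 (minus strand, Cdk1), chr9:70421525-70421684 (minus, Ccnb2), chr4:118437314-118437473 (minus, Cdc20), chr2:164769799-164769958 (plus, Ube2c), chr11:99024160-99024319 (minus, Top2a) and chr7:135716350-135716509 (minus, Mki67). In Cdk1 the pair nearest the start is a CCAAT box in reverse followed by TTTGAA. In Cdc20, a TTTGAA lies between CCAAT boxes, and in Mki67 the window holds TTTGAA 2 times and no CCAAT.

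The RefSeq promoter table held 45 of the 51 genes and not Tpx2, Smc4, Aurkb, Cdc25c, Dlgap5 and Cdca2. In the full 300-base windows (250 bases before and 50 after the start), TTTGAA on either strand was present in 33 of 45 genes (73.3%), against 20.2% of all genes in the table. CCAAT on either strand was present in 34 of 45 (75.6%), against 41.1% of all genes, and both motifs in 26 of 45 (57.8%), against 7.97%. Among other mitosis genes with an entry, 25 (65.8%) held TTTGAA and 23 (60.5%) CCAAT. Among S phase genes, 6 (19.4%) held TTTGAA and 22 (71%) CCAAT, a share of TTTGAA close to that of all genes. A match of letters is a description of the window and does not show binding.

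Summed over the 51 genes, Hopx/Clic5-positive cells held 3925 and 3747 CPM in the Epcam+ Icam+ libraries, against 6728 and 6674 CPM in tip cells. Airway cells held 4346, 4118 and 5160 CPM and macrophages 2895, 2542 and 3797 CPM, against 6728, 6674 and 6317 CPM in tip cells (Epcam+ Icam+ replicates 1 and 2, then Epcam+). Every class stood below the tip cells of its own library. Airway cells stood closest to tip cells in the Epcam+ library, and macrophages stood lowest in each library. Epithelial cells that passed both the tip and the Hopx/Clic5 gate lay in between, at 5968 and 5185 CPM in the Epcam+ Icam+ libraries. Unthinned, the sums were 4446 and 4567 CPM in Hopx/Clic5-positive cells, 4775, 4590 and 5949 CPM in airway cells and 3527, 3052 and 4385 CPM in macrophages, against 7385, 7484 and 6669 CPM in tip cells, in the same order within each library.

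The share of cells rich in these transcripts was lower in each class than in tip cells of the same library. The per-cell sum has a long upper tail, and a line was drawn at 25 UMIs of the 51 genes per cell. Of Hopx/Clic5-positive cells, 24.6% (exact 95% binomial interval 20.1 to 29.5) and 20.6% (16.2 to 25.7) were at or over this line, against 55.1% (51.2 to 59.0) and 55.3% (51.2 to 59.3) of tip cells. Airway cells reached 32.8%, 27.1% and 46% and macrophages 19.1%, 15.03% and 25%, against 55.1%, 55.3% and 58.3% of tip cells. Over the line, Hopx/Clic5-positive cells averaged 53.1 and 58.3 UMIs, against 51.5 and 51.6 UMIs in tip cells. Airway cells over the line averaged 45.9, 52.3 and 42.0 UMIs and macrophages 43.6, 42.1 and 40.8 UMIs, against 51.5, 51.6 and 43.3 UMIs in tip cells. These means are of cells picked by the same sum, so they describe the cut and do not compare the level in dividing cells. The line is a cut through a range. Within 3 UMIs of it lay 6 and 7 Hopx/Clic5-positive cells, 4, 4 and 13 airway cells and 19, 23 and 7 macrophages, against 44, 38 and 256 tip cells. Cells over the line were also deeper before thinning: their median was 23980 and 26470 UMIs in Hopx/Clic5-positive cells, against 17150 and 18480 UMIs under the line, and 27700 and 28810 UMIs in tip cells, against 20350 and 20980. Unthinned, 63.2% and 61.8% of Hopx/Clic5-positive cells held 25 or more UMIs of these genes, against 89.5% and 89.5% of tip cells. Intervals cover counting error only.

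**Figure D1:**
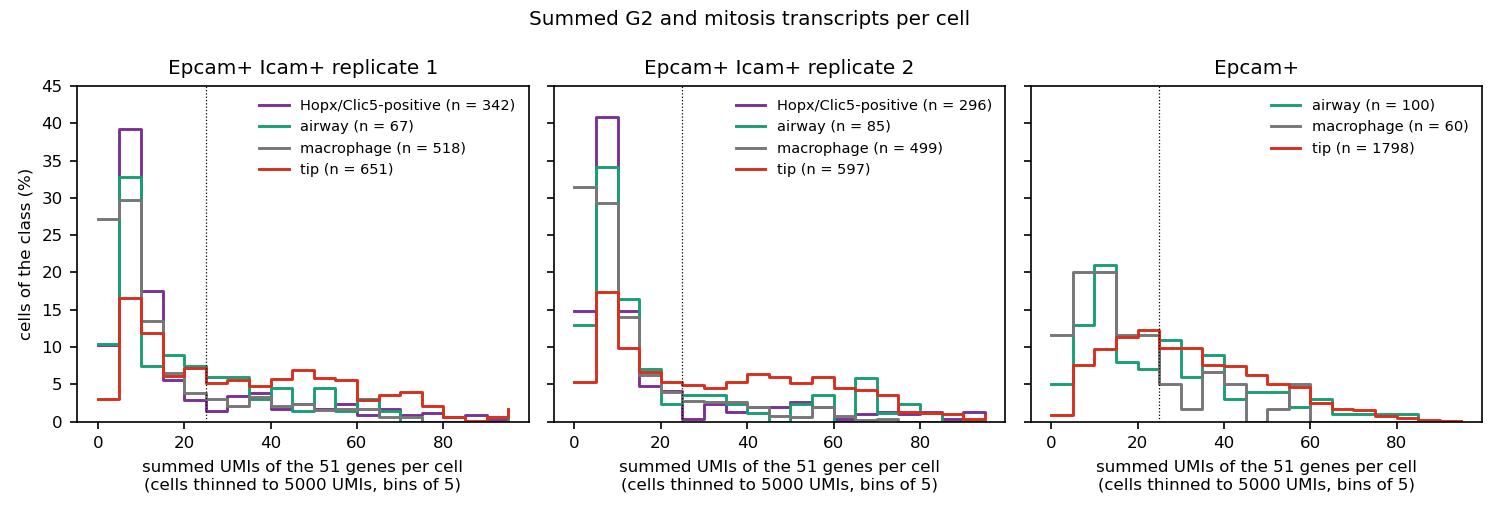
Share of cells (%, vertical axis) by summed UMIs of the 51 genes per cell (horizontal axis, bins of 5, the last bin holding 95 and more), for each class and library, with every cell thinned to 5000 UMIs and a dotted line at 25 UMIs. Hopx/Clic5-positive cells and macrophages pile up at low sums in the Epcam+ Icam+ libraries, and tip cells carry the wide upper tail, with 55.1%, 55.3% and 58.3% of them at or over the line.

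Hopx/Clic5-positive epithelium had lower levels of all 51 genes than tip cells in both Epcam+ Icam+ libraries, by a median log2 difference of -0.81 in each (pseudocount 5 CPM). In the edgeR quasi-likelihood test on counts summed per library and class, with library as a term and Benjamini-Hochberg adjustment at 0.05 over all genes, 34 of the 50 genes that passed the filter on low counts were lower in Hopx/Clic5-positive cells and none was higher. Of all 10914 genes tested, 2.57% were lower, 2.05% higher and 4.63% either. The median log2 fold change was -0.88 over the 50 genes, against -0.03 over all genes. Gtse1, which had at most 6.67 CPM in any class, did not pass the filter. No gene of the 50 was higher at an unadjusted p of 0.05 either, and DESeq2 called 17 lower and 0 higher.

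Among genes of mitotic entry, 5 of 9 tested were lower. Cdk1, the kinase that drives mitosis, stood at 103.5 and 102 CPM in Hopx/Clic5-positive cells, against 205.5 and 203 CPM in tip cells (log2 fold change -0.92, SE 0.147, edgeR adjusted p = 8.71e-06). Ccnb2, a B-type cyclin that partners Cdk1, stood at 25.7 and 30.4 CPM, against 77.4 and 67.3 CPM in tip cells (-1.25, SE 0.198, edgeR adjusted p = 6.76e-06). In both genes the libraries of a class lay close together and the classes did not overlap. Aurka, the kinase of spindle poles, and G2e3, a ubiquitin ligase named for its G2 expression, did not pass, with -0.35 (SE 0.319) and -0.09 (SE 0.215). Aurka had 14.6 and 6.76 CPM in Hopx/Clic5-positive cells, against 15.4 and 14.7 CPM in tip cells, so its replicates differed from each other as much as the classes did.

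Of the checkpoint and anaphase-promoting complex genes, 3 of 4 were lower. Ube2c, the ubiquitin-conjugating enzyme of that complex, stood at 178 and 147 CPM in Hopx/Clic5-positive cells, against 351 and 335 CPM in tip cells (-1.01, SE 0.144, edgeR adjusted p = 5.54e-07). Cdc20, which activates the complex at anaphase, stood at 31.0 and 33.1 CPM, against 58.1 and 74.7 CPM in tip cells (-0.89, SE 0.197, edgeR adjusted p = 0.00164). Bub1, a checkpoint kinase, was lower by -1.23 (SE 0.232).

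Of the kinetochore and centromere genes, 7 of 8 were lower, of the chromosomal passenger complex genes 3 of 3, and of the spindle and microtubule genes 10 of 12. Nuf2, part of the Ndc80 complex that holds microtubules at the kinetochore, had the largest fold change of the called genes, -1.69 (SE 0.35), on low levels of 6.43 and 4.73 CPM against 19.7 and 19.4 CPM in tip cells. Kif11, the motor that pushes spindle poles apart, stood at 27.5 and 19.6 CPM, against 70.4 and 64.3 CPM in tip cells (-1.43, SE 0.201, edgeR adjusted p = 3.71e-07). Kif2c, a microtubule depolymerase at centromeres, and Tacc3, which stabilises spindle microtubules, were both lower by -1.16. Aurkb, the kinase of the passenger complex, was lower by -1.08 (SE 0.214).

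Of the chromosome structure genes 5 of 9 were lower, of the cytokinesis genes 1 of 3 and of the nuclear envelope genes 0 of 2 in the edgeR test. At an unadjusted p of 0.05 the counts were 7, 3 and 2, and all 14 genes of these roles had negative fold changes. Top2a, which untangles sister chromatids, stood at 140 and 106 CPM in Hopx/Clic5-positive cells, against 304 and 256 CPM in tip cells (-1.12, SE 0.152, edgeR adjusted p = 1.55e-07). Mki67, the source of the proliferation marker Ki-67, stood at 84.2 and 105 CPM, against 188 and 168.5 CPM (-0.83, SE 0.156, edgeR adjusted p = 1.72e-04). Cbx5, the heterochromatin protein HP1 alpha, stood at 183 and 169 CPM, against 204 and 194 CPM, and did not pass (-0.12, SE 0.139). Tmpo, a lamina-associated protein, did not pass either (-0.36, SE 0.14).

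**Figure D2:**
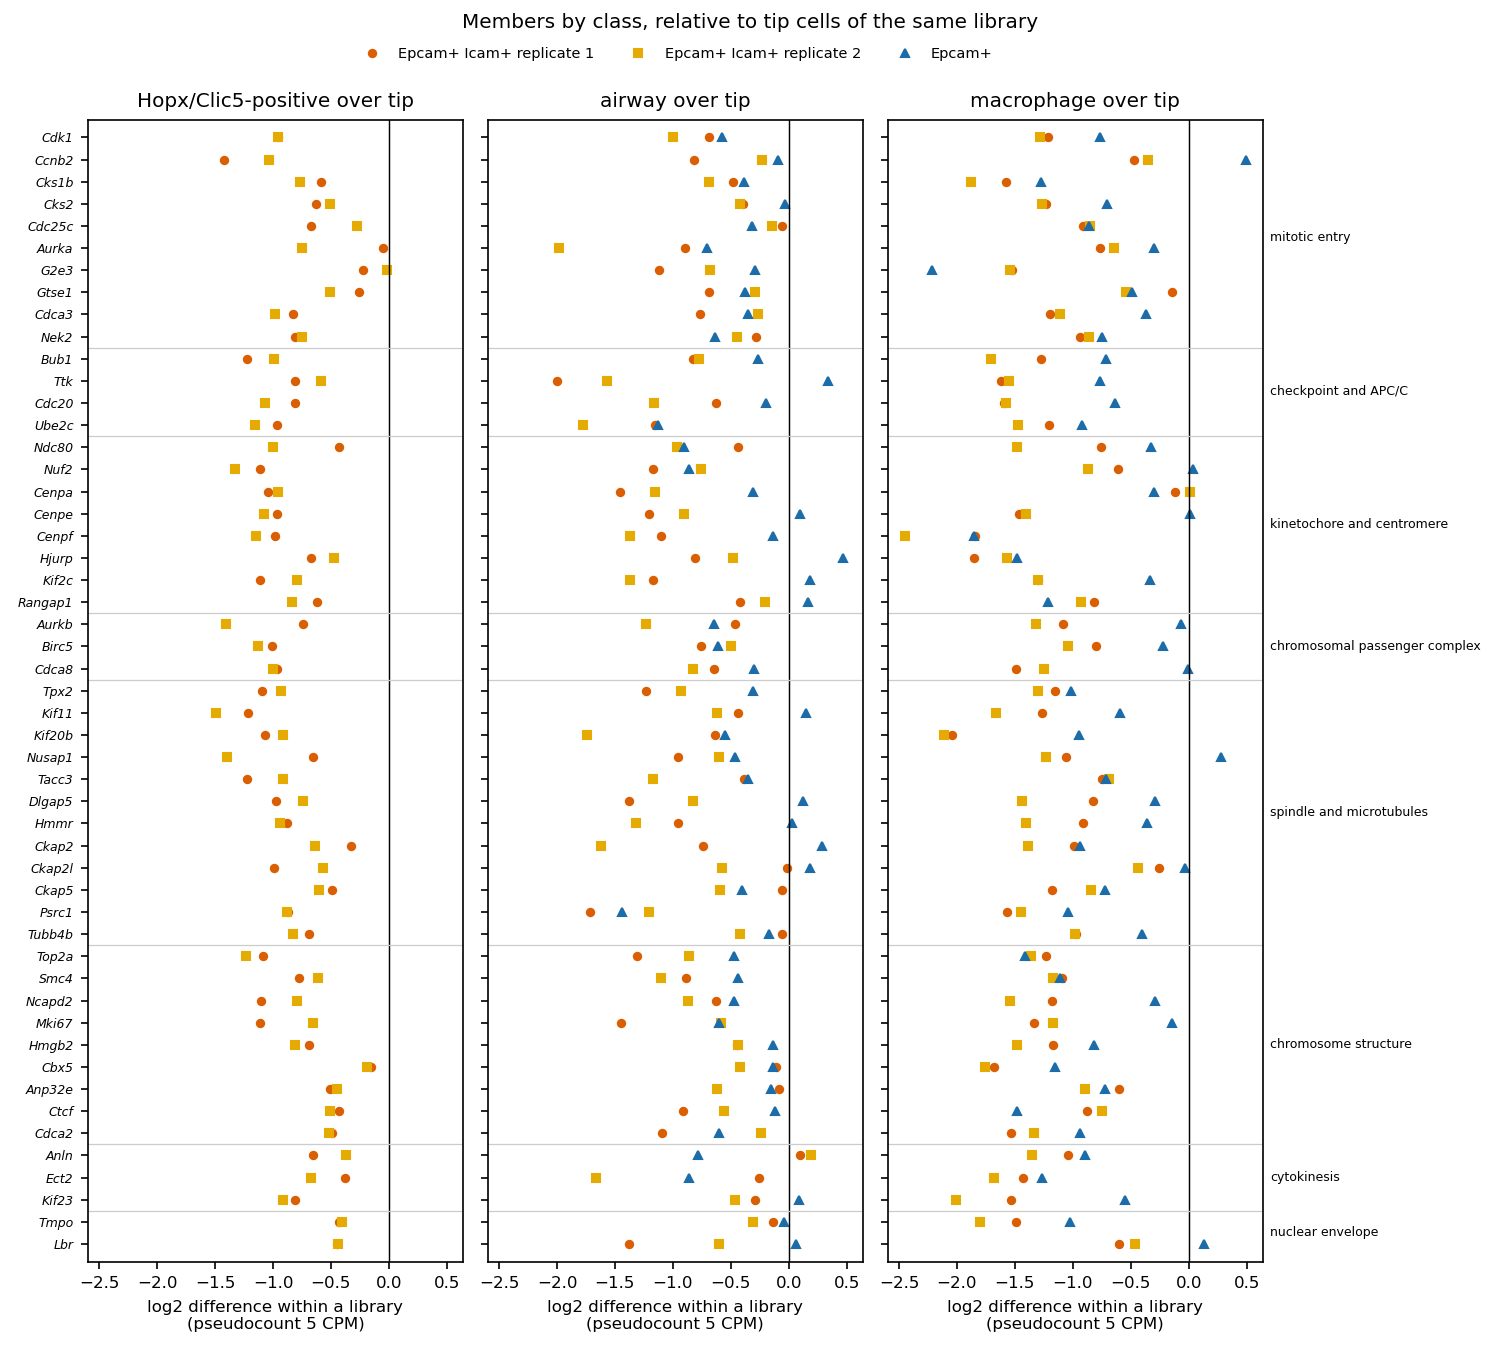
Log2 difference of each class from tip cells of the same library (horizontal axes, pseudocount 5 CPM) for the 51 genes (vertical axis, grouped by role), with 1 symbol for each library. All 51 genes lie left of 0 in Hopx/Clic5-positive cells of both libraries, whereas in airway cells 39 of 51 do so in the Epcam+ library.

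Outside the 51, 28 of 49 other mitosis genes tested were lower in Hopx/Clic5-positive cells and none was higher, among them Ccnb1 (-1.21, SE 0.221), Ccna2 (-1.20, SE 0.217) and Prc1 (-1.18, SE 0.177). No other mitosis gene was called higher by edgeR. Of 43 S phase genes, 12 were lower and none higher, with a median log2 fold change of -0.45, led by Cdca7 (-1.25, SE 0.24) and Dtl (-1.22, SE 0.237). The class exists in 2 libraries only: without replicate 1 the test called 7 of the 51 genes lower and without replicate 2 it called 0, with medians of -0.79 and -0.73. The median also moved with the gates, to -1.58 with doubled marker minimums and -2.90 with classes taken from clusters. The clusters were made without the 51 genes and the lists of other mitosis and S phase genes. Genes outside these lists that follow the cycle, such as Tuba1c and Arl6ip1, were not removed, so the clusters are not free of the cycle. No gene was called without the library term.

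Airway cells were also below tip cells, by less and less evenly. Lower levels were seen for 50, 50 and 39 of the 51 genes in the 3 libraries, with median log2 differences of -0.74, -0.69 and -0.31. The edgeR test, which shares the tip sums with the other class comparisons, called 23 of 50 genes lower and none higher, against 5.27% of all genes lower, 4.83% higher and 10.1% either. The median was -0.66, against -0.08 over all genes. None was called higher by DESeq2, which called 11 lower.

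Ube2c stood out among the genes given in every class, at 155, 94.1 and 184 CPM in airway cells, against 351, 335 and 408.5 CPM in tip cells (-1.38, SE 0.148, edgeR adjusted p = 2.16e-11). All airway values lay below all tip values. Cdk1 stood at 125, 98.8 and 160 CPM, against 205.5, 203 and 241 CPM (-0.79, SE 0.151, edgeR adjusted p = 6.90e-05). Top2a stood at 119, 139 and 132 CPM, against 304, 256 and 186 CPM (-0.89, SE 0.156), again without overlap. Mki67 stood at 65.7, 111 and 40 CPM, against 188, 168.5 and 63.2 CPM (-0.89, SE 0.187), where the libraries of each class spread widely and the Epcam+ library was lowest in both. Cdc20 stood at 35.8, 30.6 and 124 CPM, against 58.1, 74.7 and 143 CPM (-0.62, SE 0.197, edgeR adjusted p = 0.029), with the Epcam+ library highest in both classes.

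Psrc1, a microtubule-associated protein, had the largest fold change of the called genes in airway cells (-1.93, SE 0.377, edgeR adjusted p = 9.93e-05), at 2.99, 7.06 and 14 CPM against 21.2, 22.8 and 46.5 CPM in tip cells. After Ube2c, Aurka was lower by -1.32 (SE 0.386) and had 0 UMIs in airway cells of replicate 2, which allows up to 7.06 CPM. Nuf2 (-1.25, SE 0.396), the cytokinesis regulator Ect2 (-1.09, SE 0.347), the kinesin Kif20b (-1.06, SE 0.256) and the kinetochore gene Ndc80 (-0.94, SE 0.308) were lower as well. Anln, the cytokinesis scaffold anillin, did not pass, with 29.9, 28.2 and 4 CPM in airway cells, against 27.7, 24.1 and 10.46 CPM in tip cells. Rangap1, Ckap2l and Tmpo were the others with fold changes nearest to 0, at -0.12, -0.14 and -0.17. By role, 3 of 3 passenger complex genes were lower, 6 of 12 spindle genes, 4 of 8 kinetochore genes and 0 of 2 nuclear envelope genes, with 1 of those 2 below an unadjusted p of 0.05.

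Of other mitosis genes, 12 of 49 were lower in airway cells and none higher, led by Iqgap3 (-2.01, SE 0.526) and the anaphase-promoting complex inhibitor Fbxo5 (-1.78, SE 0.357). Of S phase genes, 9 of 43 were lower and 1, cyclin Ccne2 (0.89, SE 0.287), was higher. The airway count rests on 67 to 100 cells a library and moved between 8 and 26 genes when 1 library was left out. It was 36 with unthinned counts and 14 with cells thinned to 3000 UMIs.

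Macrophages were below tip cells for 51, 50 and 46 of the 51 genes in the 3 libraries, with median log2 differences of -1.18, -1.32 and -0.72. In the edgeR test 44 of 50 genes were lower and none higher, but 34% of all genes were lower and 30.3% higher (64.3% either) in this comparison between distant cell types, and the count is read against that. The median was -0.96, against -0.08 over all genes. At an unadjusted p of 0.05 no gene of the 50 was higher, and DESeq2 called 41 lower and 0 higher.

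Cdk1 stood at 85.7, 80.6 and 140 CPM in macrophages, against 205.5, 203 and 241 CPM in tip cells (-0.91, SE 0.129, edgeR adjusted p = 7.39e-09). Top2a stood at 127, 96.6 and 66.7 CPM, against 304, 256 and 186 CPM (-1.02, SE 0.135). Ube2c stood at 149, 117 and 213 CPM, against 351, 335 and 408.5 CPM (-0.99, SE 0.125). These genes did not overlap between the classes. Cdc20 stood at 15.8, 21.6 and 90 CPM, against 58.1, 74.7 and 143 CPM (-1.25, SE 0.173), and Mki67 at 71.4, 72.1 and 56.7 CPM, against 188, 168.5 and 63.2 CPM (-0.87, SE 0.146). The classes overlapped across libraries for both genes, and macrophages stayed below the tip cells of their own library.

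The checkpoint kinase Ttk had the largest fold change (-2.35, SE 0.419), followed by Kif20b (-2.01, SE 0.204), Cdca2, which brings a phosphatase to chromosomes (-1.99, SE 0.338), the kinetochore protein Cenpf (-1.87, SE 0.159), Psrc1 (-1.77, SE 0.273), G2e3 (-1.71, SE 0.248), the centromere chaperone Hjurp (-1.68, SE 0.208) and Ect2 (-1.63, SE 0.236). Exceptions stood out against this. Cenpa, the histone variant of centromeres, stood at 137, 128 and 133 CPM in macrophages, against 148, 127 and 165 CPM in tip cells (0.21, SE 0.135, edgeR adjusted p = 0.167). Ccnb2 stood at 54.4, 51.7 and 140 CPM, against 77.4, 67.3 and 98.2 CPM (0.05, SE 0.146, edgeR adjusted p = 0.77), with macrophages lower in both Epcam+ Icam+ libraries and higher in the Epcam+ library. Ckap2l (-0.05, SE 0.218) and the inner nuclear membrane protein Lbr (-0.15, SE 0.16) did not pass either. Hjurp, which loads Cenpa at centromeres, was thus called and Cenpa was not. With RLE scaling (0.29, edgeR adjusted p = 0.0243) and without the Epcam+ library (0.35, edgeR adjusted p = 1.48e-04) Cenpa was called higher. The CPM of Cenpa do not share this direction: within libraries the log2 difference of macrophages from tip cells (pseudocount 5 CPM) was -0.12, 0.01 and -0.30, so the positive fold changes appear on the scaled counts of the fit and not in the equal-depth levels.

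Of other mitosis genes, 41 of 49 were lower in macrophages and 2 were higher, Pttg1, which encodes securin (0.72, SE 0.192), and the phosphatase gene Cdkn3 (0.51, SE 0.186). Of S phase genes, 36 of 43 were lower. In the joint test of whether the macrophage difference from tip cells depended on the sort, 2 of 51 genes passed, Nusap1 and Cdca8, both more negative in the Epcam+ Icam+ sort, against 0.555% of all genes in that direction, 3.41% in the other and 3.96% in either. For airway cells 0 of 51 passed with edgeR, the sole tool run, against 2.03% of all genes in either direction, 1.81% positive and 0.224% negative, and 8 of the 51 were under an unadjusted p of 0.05.

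**Figure D3:**
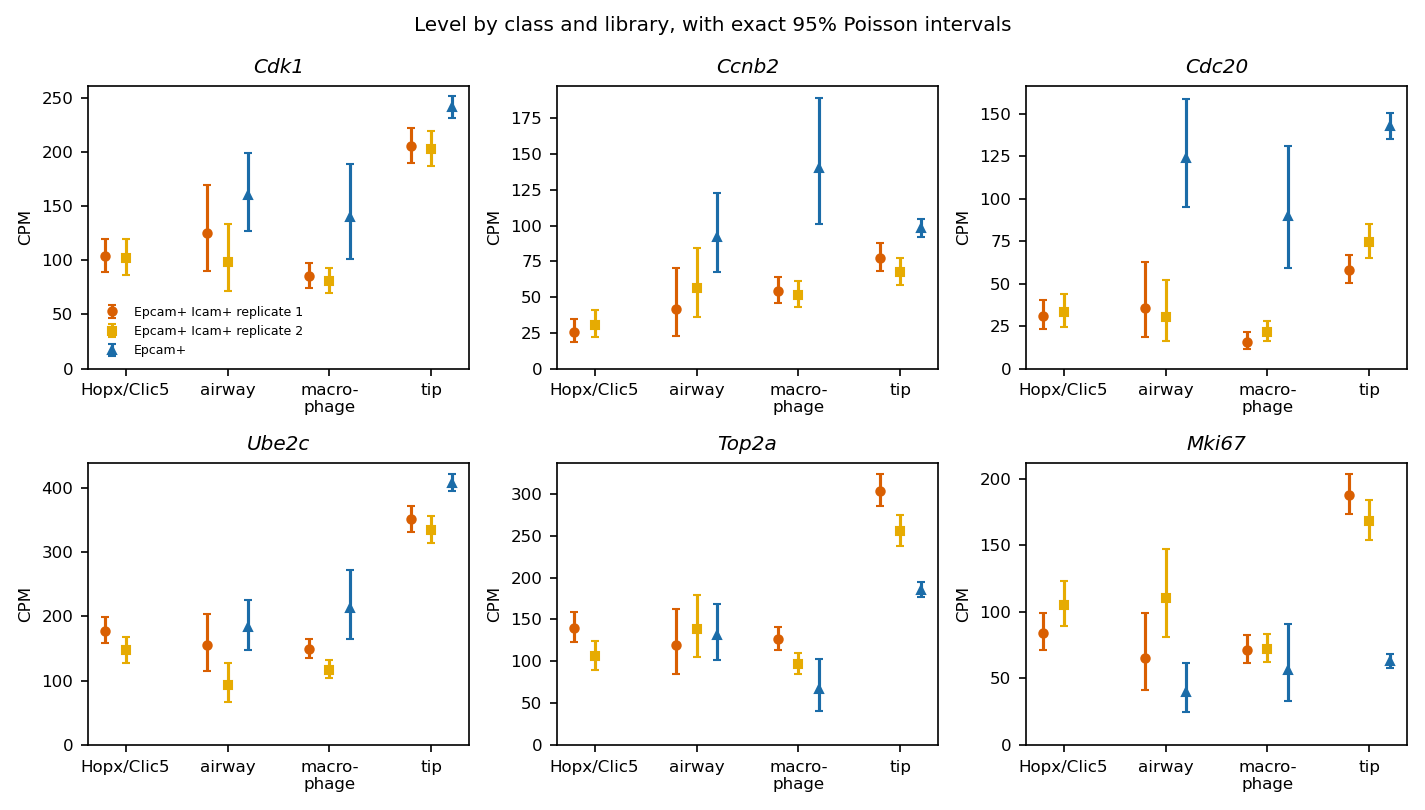
Levels (CPM, vertical axes from 0) of 6 genes in each class, with 1 symbol for each library and exact 95% Poisson intervals, which cover counting error only. Tip cells are highest in each library for Cdk1, Ube2c and Top2a, whereas Ccnb2 is highest in macrophages of the Epcam+ library at 140 CPM.

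Within tip cells, the genes followed the cycle to unequal degrees. Cells were ranked by the summed UMIs of the other genes of the list, and each gene's level in the top 10% of cells (65, 60 and 180) was divided by its level in the lower 50% (325, 298 and 899, pseudocount 5 CPM). These ratios describe cells chosen by the same kind of transcript and have no test. Cells of the top 10% were deeper before thinning, with medians of 29470, 32190 and 33520 UMIs against 20690, 21220 and 26730. The ratio was over 2 for 46, 47 and 44 of the 51 genes, against 3.46%, 3.64% and 1.77% of all genes at or over 20 CPM.

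The steepest followers by the median of the 3 libraries were Nusap1, which bundles spindle microtubules (22.4, 26.1 and 11.35), and Ube2c (19.8, 30.6 and 13.8). Kif11 had ratios of 17.4, 15.5 and 4.48. The flattest were Cbx5 (1.55, 1.22 and 1.14) and Lbr (1.61, 2.35 and 1.23). Mki67 (7.41, 6.35 and 3.17) and Top2a (9.29, 10.7 and 3.81) lay between them. For each of these genes the Epcam+ library gave the lowest ratio.

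Ranking the same tip cells by summed S phase genes in place of G2 and mitosis genes set the list apart into genes low and genes raised in S phase. Cenpa had a ratio of 0.10, 0.08 and 0.18 in the cells richest in S phase transcripts, Cdc20 of 0.14, 0.36 and 0.14, Ube2c of 0.20, 0.13 and 0.16 and Ccnb2 of 0.21, 0.25 and 0.20. Mki67 stood at 2.88, 2.14 and 0.69, Top2a at 2.57, 1.70 and 1.11 and Cdk1 at 1.55, 1.63 and 0.92. Cenpa, Cdc20, Ube2c and Ccnb2 were thus below 1 in each library, whereas Mki67 and Cdk1 were above 1 in the Epcam+ Icam+ libraries and below 1 in the Epcam+ library.

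**Figure D4:**
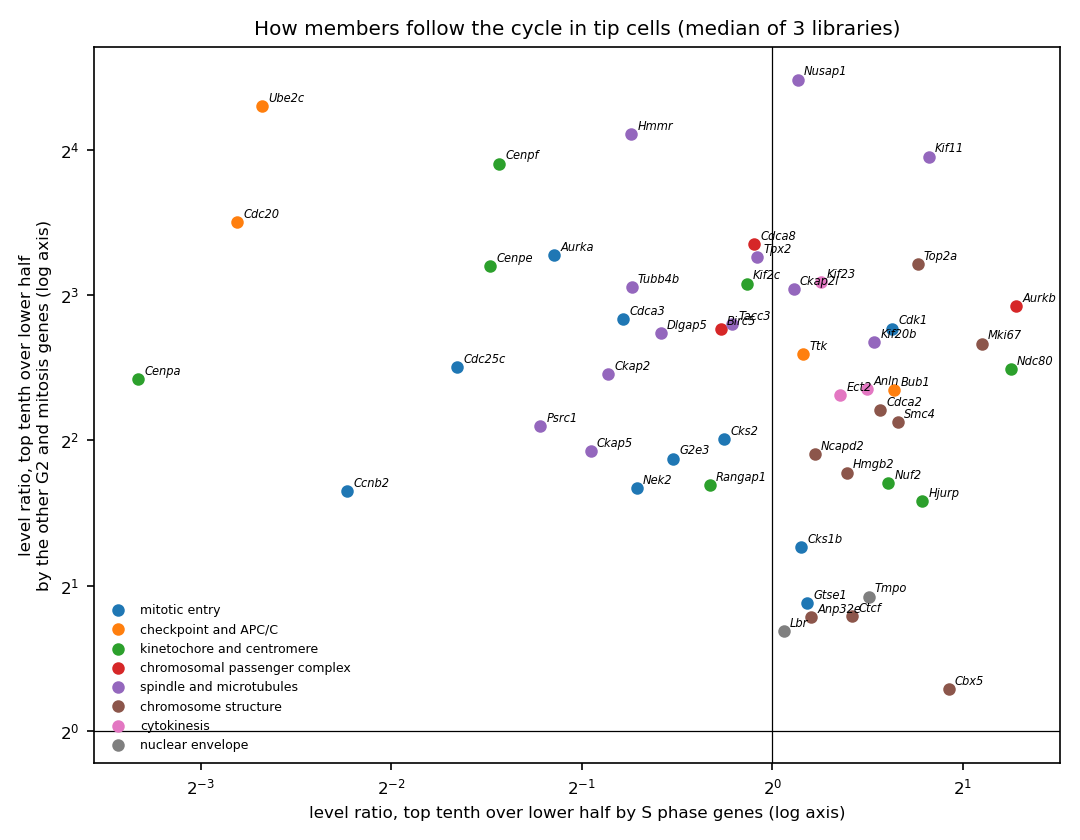
Ratio of each gene's level between the top 10% and the lower 50% of tip cells, ranked by S phase genes (horizontal axis, log scale) and by the other G2 and mitosis genes (vertical axis, log scale), as the median of 3 libraries, with colour for role. Ube2c, Cdc20, Ccnb2 and Cenpa lie far to the left, Mki67, Top2a and Kif11 to the right of 1, and Cbx5 and Lbr near the bottom.

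Genes outside the list with the pattern most like it were taken as those with the highest ratio in the weakest of the 3 libraries, at a mean of at least 20 CPM. Those named here are Ccnb1 (8.86 or more in each library), Plk1, Prc1, Pimreg, Kif22, Kif20a, Tuba1c, Arl6ip1, Racgap1, Spc25 and Cdkn3 (4.15 or more). Of these, all but Tuba1c, a tubulin gene, and Arl6ip1, a gene of endoplasmic reticulum shaping, stand in the list of other mitosis genes. In macrophages of the Epcam+ Icam+ libraries the ratio of Top2a was 36.0 and 26.6 and that of Mki67 28.1 and 14.4. In tip cells of these libraries it was 9.29 and 10.7 for Top2a and 7.41 and 6.35 for Mki67. Other listed genes had a lower ratio in macrophages than in tip cells, among them Ube2c (15.6 and 24.6, against 19.8 and 30.6). So did Cenpa (4.36 and 3.65, against 5.37 and 6.05) and Aurka (4.88 and 4.45, against 8.5 and 9.7). The lower-ranked tip cells reached sums of 29 and 30 UMIs, whereas 19.1% and 15.03% of macrophages held 25 or more. The ratios thus compare unlike groups of cells, and the part of this in the differences was not tested.

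Between the sorts, the genes did not move together in tip cells. The edgeR test of 2 Epcam+ Icam+ libraries against 1 Epcam+ library, with 1 residual degree of freedom, called 17 of 51 genes higher and 20 lower in the Epcam+ Icam+ sort, against 33.4% of all genes higher, 33.1% lower and 66.5% either. The shares, 33.3% and 39.2% of the 51, are near that background, and the median was 0.03. The summed level, 6728 and 6674 CPM against 6317 CPM, hides changes in both directions. Spread among Epcam+ libraries was not measured, so small p-values between the sorts do not cover it. With DESeq2 11 were higher and 8 lower, and 9 were lower with doubled gate minimums and 9 with classes from clusters.

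Kif11 stood at 70.4 and 64.3 CPM in Epcam+ Icam+ tip cells, against 17.6 CPM in Epcam+ tip cells (log2 fold change 1.87, SE 0.132, edgeR adjusted p = 3.51e-40). Mki67 stood at 188 and 168.5 CPM, against 63.2 CPM (1.43, SE 0.0794, edgeR adjusted p = 5.38e-61). Top2a stood at 304 and 256 CPM, against 186 CPM (0.53, SE 0.0591). Ect2 (1.29, SE 0.156), Anln (1.24, SE 0.184), the microtubule polymerase Ckap5 (1.21, SE 0.113), Hjurp (0.85, SE 0.127), G2e3 (0.83, SE 0.154) and Bub1 (0.68, SE 0.137) were higher as well. Among genes lower in the Epcam+ Icam+ sort, Aurka stood at 15.4 and 14.7 CPM, against 42.3 CPM (-1.55, SE 0.158, edgeR adjusted p = 6.12e-21), and Cdc20 at 58.1 and 74.7 CPM, against 143 CPM (-1.18, SE 0.0844, edgeR adjusted p = 3.50e-39). Psrc1 (-1.15, SE 0.141), Gtse1 (-0.98, SE 0.354), Cdc25c, the phosphatase that activates Cdk1 (-0.92, SE 0.22), Tacc3 (-0.74, SE 0.0953), Cdca2 (-0.58, SE 0.171) and Cdca3 (-0.51, SE 0.0795) were lower too. Cdk1 (-0.31, SE 0.0597) and Ube2c (-0.32, SE 0.0495) were lower by less, and Ctcf (-0.02), Ttk (0.03), Ckap2 (-0.05) and Anp32e (0.08) did not pass. By role, 8 of 10 mitotic entry genes were lower and 1 higher, whereas 2 of 3 cytokinesis genes and 2 of 2 nuclear envelope genes were higher and none lower.

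The direction ran with the exonic length of the gene. Over the 51 genes, Spearman's rho between exonic length (all exons merged, GENCODE vM21) and the log2 fold change was 0.69 in tip cells, a description across genes of the same libraries and not a test. The 17 genes of 6000 or more exonic bases had a median of 0.52 and the 4 genes under 2000 bases a median of -0.48. Kif11, Mki67, Ckap5 and Anln have 7461, 10061, 9462 and 9063 exonic bases, and Aurka and Cdc20 have 2531 and 1868. Roles differ in length too. Of mitotic entry, Cks2, Cks1b and Ccnb2 have 692, 1126 and 1531 bases, though G2e3 has 7886. The cytokinesis gene Kif23 has 7901 and the nuclear envelope genes Tmpo and Lbr 10998 and 4761, so the split by role is not separated from length. All genes tested showed the same order by length, with rho 0.46 and medians of 0.65 and -0.33 for long and short genes. The relation is thus not particular to the list. It was also present for the sort difference in airway cells (rho 0.415 over the listed genes tested, 0.317 over all genes) and macrophages (0.502 and 0.367). The sort calls in those classes, given below, are not separated from length. In the class comparisons rho was 0.09 over the list for Hopx/Clic5-positive cells (0.06 over all genes) and -0.06 for airway cells (0.0038 over all genes). For macrophages against tip cells rho ran the other way, at -0.36 over the list and -0.03 over all genes. The part of length in the sort difference cannot be told apart from that of the Icam1 pick, the software version and the gene table.

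**Figure D5:**
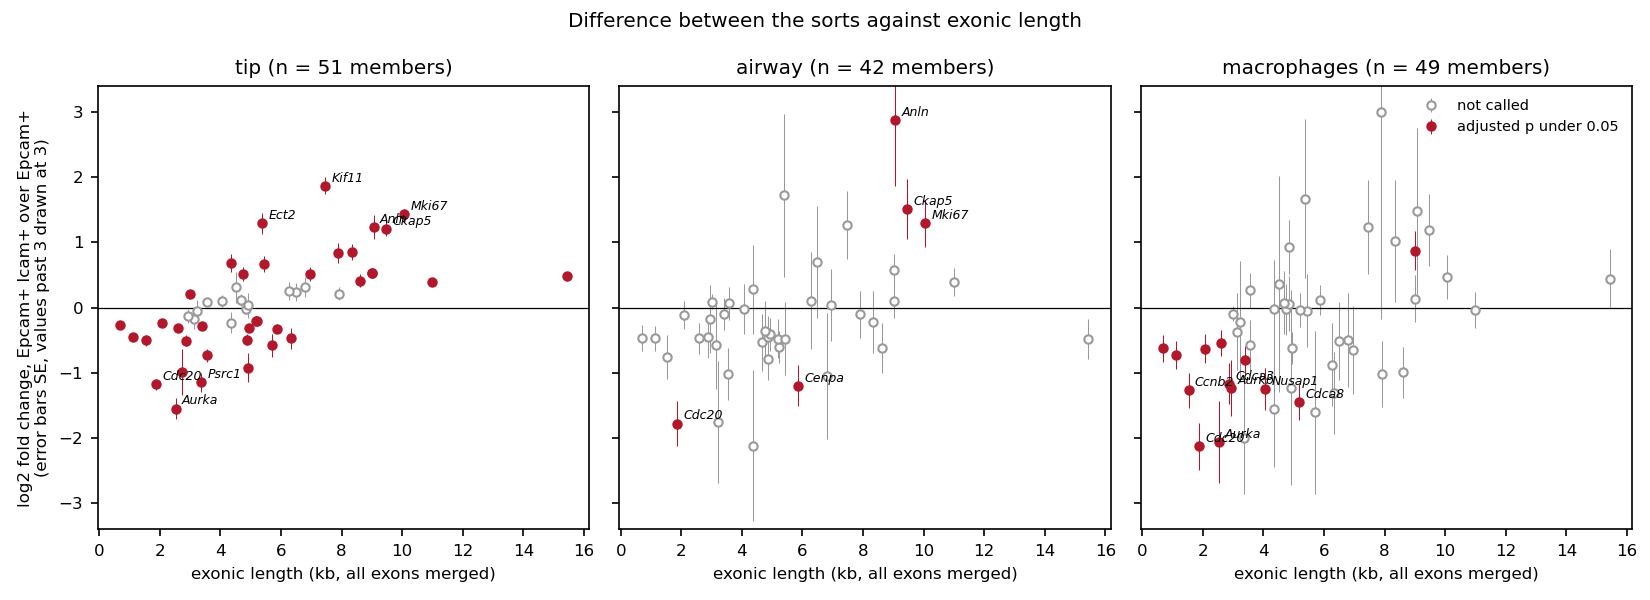
Log2 fold change of Epcam+ Icam+ over Epcam+ (vertical axes, error bars SE, values past 3 drawn at 3) against exonic length in kb (horizontal axes) in tip cells, airway cells and macrophages, with filled symbols for an adjusted p under 0.05. In tip cells long genes such as Kif11 and Mki67 lie above 0 and shorter genes such as Aurka and Cdc20 below, with a Spearman's rho of 0.69.

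In airway cells, 3 of 42 genes tested were higher in the Epcam+ Icam+ sort and 2 lower, against 10.6% and 8.41% of all genes (19% either). Mki67 was higher (1.29, SE 0.362, edgeR adjusted p = 0.00414), at 65.7 and 111 CPM against 40 CPM. Ckap5 was higher by 1.51 (SE 0.461), and Anln rested on 22 UMIs against 2, a ratio of 7.24 with an exact interval of 1.78 to 63.5. Cdc20 (-1.78, SE 0.341, edgeR adjusted p = 5.46e-06) and Cenpa (-1.20, SE 0.313) were lower. Nusap1 (-0.02), Kif20b (0.04), Anp32e (0.06) and Hmgb2 (0.09) had the fold changes nearest to 0. DESeq2 called 0 higher and 0 lower, so that none of these calls held with it, and with RLE scaling or at 3000 UMIs 0 were higher. With classes from clusters, which put 335, 100 and 190 cells in the airway class in place of 67, 85 and 100, Mki67 turned to -0.25. The counts of called genes also moved with clusters and with unthinned counts. They were not set against the share of all genes under those settings.

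In macrophages, 1 of 49 genes tested was higher in the Epcam+ Icam+ sort, Top2a (0.87, SE 0.298, edgeR adjusted p = 0.023), and 12 were lower, against 11.2% and 7.79% of all genes (19% either). Cdc20 stood at 15.8 and 21.6 CPM in Epcam+ Icam+ macrophages, against 90 CPM in Epcam+ macrophages (-2.13, SE 0.365, edgeR adjusted p = 2.10e-07). Ccnb2 stood at 54.4 and 51.7 CPM, against 140 CPM (-1.27, SE 0.268). Aurka (-2.06, SE 0.629), Cdca8 (-1.45, SE 0.27), Nusap1 (-1.25, SE 0.329), Aurkb (-1.24, SE 0.428), Cdca3 (-1.17, SE 0.316) and Birc5 (-0.81, SE 0.213) were lower as well, so that all 3 genes of the passenger complex, Aurkb, Birc5 (survivin) and Cdca8 (borealin), were called. Bub1 (-0.02), Lbr (-0.03), Smc4 (-0.04) and Tmpo (-0.04) had the fold changes nearest to 0. G2e3 had 10.04 and 6.81 CPM in Epcam+ Icam+ macrophages, against 0 UMIs in Epcam+ macrophages, which allows up to 10 CPM, so no fold is given. The Epcam+ side rests on 60 cells in which mast cell and basophil markers summed to 1247 CPM, against 167 and 202 CPM in the Epcam+ Icam+ libraries, and the part of these in the result was not tested. The call of Top2a was lost with DESeq2 (0.82) and at 3000 UMIs (0.49). DESeq2 called 2 genes lower, and 4 were lower at 3000 UMIs, 7 with doubled gate minimums and 20 with unthinned counts.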

How the data were processed

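Single-cell libraries of E14.5 mouse lung were deposited as gene by cell matrices of UMI counts, not normalized, from Cell Ranger 2.1.1 on mm10 per the submitters' processing notes and Cell Ranger 5.0.1 (Epcam+ Icam+) or 3.0.2 (Epcam+) per the file headers. The authors' counts were joined by Ensembl ID. Barcodes with at least 1000 UMIs, 500 genes and at most 10% mitochondrial UMIs were kept (3400, 3167 and 2990), and the highest scrublet doublet scores were removed at 0.8% per 1000 barcodes (129, 115 and 88). Cells were thinned to 5000 UMIs (seed 1). Classes were gated on markers outside the list (epithelium, at least 8 epithelial and at most 5 macrophage marker UMIs; macrophages, at least 15 and at most 5 epithelial; each epithelial class, at least 2 UMIs of its markers and under 2 of the others', except that airway cells could hold fewer tip than airway marker UMIs). Tip UMIs came largely from Id2.

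Counts were summed per library and class of at least 20 cells and tested with edgeR 4.0.16 (quasi-likelihood, TMM, filterByExpr, Benjamini-Hochberg over all genes; R 4.3.3), with library as a term for classes and per class for sorts. On simulated data the Hopx/Clic5-positive test recovered 49% of genes changed by 0.75 and 97% of those changed by 1.5 (log2). DESeq2 1.42.0, RLE scaling, other filters, depths, gates, clusters and left-out libraries were alternatives. The genes, lists and roles were chosen with earlier results of these data known. Named were, per comparison, the 8 called genes with the largest fold change in each direction and the 4 nearest to 0, and Mki67, Top2a, Cdk1, Ube2c and Cdc20. Outside the list, the 12 genes that followed it most closely in tip cells were taken, of which 1 is not reported here. Other genes were named after their values were seen. Ckap5, Top2a, Ncapd2 and Lbr share exonic bases with another gene on the same strand. Scanpy 1.11.5 and scipy 1.17.1 were used under Python 3.11.15.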

Additional observations from a re-analysis of the deposited data

Results flagged for a closer look

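The macrophage difference from tip cells depended on the sort for 2 of the 51 genes, in a joint edgeR test added after the data were seen. Of all 12066 genes tested, 3.96% passed in either direction, a share near that of the 51. By direction, 0.555% were more negative in the Epcam+ Icam+ sort and 3.41% more positive. For Nusap1 the difference was more negative in the Epcam+ Icam+ sort than in the Epcam+ sort by -1.19 (log2, SE 0.356, adjusted p = 0.0267). It had 35.9 and 33.3 CPM in macrophages against 80.2 and 84.8 CPM in tip cells of the Epcam+ Icam+ libraries, and 90 CPM in macrophages against 73.5 CPM in tip cells of the Epcam+ library. For Cdca8 the value was -1.10 (SE 0.285, adjusted p = 0.0061), with 44.4 and 51.3 CPM in macrophages against 134 and 129 CPM in tip cells of the Epcam+ Icam+ libraries, and 143 CPM in macrophages against 144 CPM in tip cells of the Epcam+ library. The Epcam+ macrophages are 60 cells of 1 library, and the joint fit left 2 residual degrees of freedom. These 60 cells held mast cell and basophil markers at 1247 CPM, against 167 and 202 CPM in Epcam+ Icam+ macrophages. The part of these markers in the result was not tested, and the sort cannot be told apart from the software version and the gene table.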

How the results depend on the processing

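The number of genes lower in Hopx/Clic5-positive cells (34) was 17 with DESeq2, 0 without the library term and 0 to 40 when 1 library was left out. In airway cells (23) it was 11 with DESeq2, 36 with unthinned counts, 14 at 3000 UMIs, 36 with classes from clusters, 1 without the library term, 15 with a tip gate without Id2 (an alternative chosen after seeing the data) and 8 to 26 when 1 library was left out. In macrophages, the number higher (0) was 1 with RLE scaling and 0 to 1 with a library left out.

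Between the sorts, tip cells had 17 genes higher, or 11 with DESeq2, and 20 lower, or 8 with DESeq2, 13 at 3000 UMIs, 9 with doubled gate minimums and 9 with clusters. Airway cells had 3 higher, or 0 with RLE scaling, 0 with DESeq2, 6 unthinned, 0 at 3000 UMIs, 1 with doubled minimums, 1 with clusters and 6 without Id2. They had 2 lower, or 4 without the filter on low counts, 0 with DESeq2, 22 unthinned, 4 at 3000 UMIs, 4 with doublets kept, 24 with clusters and 6 without Id2, and Mki67 turned to -0.25 with clusters. Macrophages had 1 higher, or 0 with DESeq2, 7 unthinned and 0 at 3000 UMIs, and 12 lower, or 2 with DESeq2, 20 unthinned, 4 at 3000 UMIs and 7 with doubled minimums. Counts of called genes under alternatives, here and above, were not set against the share of all genes called under the same setting. The cause of the moves was not tested.

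Over all genes, Hopx/Clic5-positive cells had 224 higher and 281 lower, or 361 and 284 with RLE scaling, and airway cells 527 and 575, or 673 and 486. Of 619 values of named genes under alternatives, 515 kept direction and, where the alternative gave a test, the call. A further 103 kept direction and lost the call, and 1 turned. The 515 include values from sort comparisons with a library left out, which have no call to keep. Leaving out a library from a sort comparison leaves 1 against 1 and no test, and clusters gave no Epcam+ macrophages. No paired analysis was possible because the sorts share fewer than 2 replicate numbers. The Epcam+ sort has 1 library, airway cells and Epcam+ macrophages are few, and depth limits genes at a few UMIs.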
